A study of Homo sapiens with 2 samples.

Results

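BCL2-like survival proteins and BAX-type effectors are the core of the family that decides whether the mitochondrial outer membrane stays closed. The 8 genes described here were taken by symbol from the deposited gene tables, 5 survival genes (BCL2, BCL2L1, BCL2L2, MCL1 and BCL2A1) and 3 effectors (BAX, BAK1 and BOK), out of 57485 genes listed. Each symbol matched 1 row in each table. RNA came from ARP1, a human multiple myeloma (MM) cell line, carrying a lentiviral short hairpin RNA (shRNA) against SRD5A1 under a doxycycline (Dox)-inducible promoter. There was 1 untreated library and 1 library treated with Dox, both from this hairpin line, so the comparison has no replicate check. For the Dox library the genotype field gives SRD5A2 in place of SRD5A1, whereas its title gives SRD5A1. The dose and duration of Dox for these libraries are not given in the sources used here, and a library with Dox but without the hairpin was not analysed here. The study examined Bcl-2, Bcl-xl and Bax among the proteins of this pathway by western blotting, and the comparison below addresses the RNA of the same genes and of their closest relatives.

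The survival proteins and the effectors share a fold and short stretches of sequence similarity, the BCL2 homology (BH) regions. BAX and BAK1 oligomerize in the outer membrane and open it to cytochrome c, which starts caspase activation, and BOK can do so as well. Survival proteins hold the BH3 region of an effector in a surface groove and so keep it from oligomerizing, and BH3-only proteins such as BBC3 (PUMA) and PMAIP1 (NOXA) fill the same groove or activate the effectors. MCL1 has a short-lived protein and is well known as a survival factor of plasma cells and of MM cells, and BCL2 is the target of BH3-mimetic drugs such as venetoclax.

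The coding bases of the BH3 core are shown because this region is what the groove of a survival protein binds in an effector, and both classes carry one. In each line the codons of the core (leucine, any 3 codons, glycine and aspartate) are in capitals with 15 bases on each side, 5′ to 3′ on the coding strand, read from the GENCODE 29 transcripts. Each of the 5 lies within a single coding exon, at chr18:63318346-63318393 (reverse strand) for BCL2, chr20:31721919-31721966 (reverse) for BCL2L1, chr1:150578862-150578909 (reverse) for MCL1, chr19:48955772-48955819 (forward) for BAX and chr6:33575384-33575431 (reverse) for BAK1, in GRCh38.
BCL2: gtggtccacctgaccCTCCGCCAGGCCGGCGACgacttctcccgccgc
BCL2L1: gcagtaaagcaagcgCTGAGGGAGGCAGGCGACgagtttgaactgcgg
MCL1: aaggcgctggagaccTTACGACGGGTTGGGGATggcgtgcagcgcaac
BAX: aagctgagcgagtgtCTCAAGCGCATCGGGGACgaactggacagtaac
BAK1: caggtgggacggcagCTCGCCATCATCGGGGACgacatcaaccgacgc
The core was found at codons 97 to 102 of BCL2, 90 to 95 of BCL2L1, 213 to 218 of MCL1, 63 to 68 of BAX and 78 to 83 of BAK1. In BOK it was at codons 70 to 75 and crossed an exon boundary. The coding sequences of BCL2L2 and BCL2A1 did not hold this pattern of codons. Of the 48 bases, BCL2 shared 26 with its class member BCL2L1 and also 26 with the effector BAK1, so the bases of this stretch did not sort the genes by class.

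The second signature is the BH1 hallmark, part of the groove itself, 4 codons (asparagine, tryptophan, glycine and arginine) that all the members except BOK held. They are given in capitals within 42 bases for the 6 members whose levels the results turn on. The stretches lie in coding exons at chr18:63318214-63318255 (reverse) for BCL2, chr20:31721787-31721828 (reverse) for BCL2L1, chr14:23308026-23308067 (forward) for BCL2L2, chr1:150578376-150578417 (reverse) for MCL1, chr19:48956265-48956306 (forward) for BAX and chr6:33574169-33574210 (reverse) for BAK1.
BCL2: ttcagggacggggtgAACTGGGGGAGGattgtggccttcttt
BCL2L1: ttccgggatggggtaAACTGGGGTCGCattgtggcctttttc
BCL2L2: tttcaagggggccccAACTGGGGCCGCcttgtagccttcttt
MCL1: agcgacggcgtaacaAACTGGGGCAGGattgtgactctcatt
BAX: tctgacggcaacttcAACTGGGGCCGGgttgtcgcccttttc
BAK1: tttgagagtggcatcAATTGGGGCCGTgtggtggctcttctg
In this stretch BCL2 and BCL2L1 were the closest pair, with 34 of 42 bases the same, whereas BCL2 and MCL1 shared 26 and BAX and BAK1 shared 28. BCL2L2 and BAX, a pair from different classes, also shared 28, so apart from the closest pair the stretch did not separate the classes.

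The libraries held 45918570 (labelled without Dox) and 48728927 (labelled with Dox) expected counts, so that 3 counts equalled 0.0653 and 0.0616 CPM (counts per 1000000). SRD5A1, the targeted gene, was listed at 13.04 FPKM (fragments per kilobase of transcript, scaled to the library total) without Dox and 25.88 FPKM with Dox, a log2 ratio of 0.98 (0.89 to 1.08). A knockdown label would have predicted less of this RNA with Dox, so the directions below rest on the labels alone. All 10 plasma cell markers were at 1 FPKM or more in at least 1 library, from 26.61 FPKM for CD38 to 3515.08 FPKM for JCHAIN with Dox. Of the markers of other cells, 0 of 5 T cell genes, 0 of 5 myeloid genes and 3 of 5 epithelial genes reached 1 FPKM. Among B cell markers, PAX5 was at 1.32 FPKM without Dox and 0.79 FPKM with Dox and CD22 at 0 counts in both libraries, and the summed epithelial markers went from 8.73 to 4.22 FPKM. Log2 ratios are of FPKM + 0.1 with Dox over FPKM + 0.1 without Dox, a scale on which changes of low genes look smaller than they are. They were computed for the 14859 genes that reached 1 FPKM in either library, called tested genes here. Ranges after a log2 ratio are 95% counting intervals, and they cover neither the spread between cultures nor that between library preparations.

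Among the 6 members that reached 1 FPKM, the library labelled with Dox held more RNA of the 4 survival genes and less of BAX and BAK1. BCL2 had the largest ratio of the 8 genes, with 18.54 FPKM without Dox and 70.67 FPKM with Dox. BCL2 was the single member past 2-fold higher (1 of the 6 that passed the filter on low values, beside 17.0% of all tested genes), and 0 of the 6 were past 2-fold lower, beside 6.41% of all tested genes. With 6 genes, neither share sets the members apart from the background. BCL2A1 and BOK stayed under 1 FPKM in both libraries. The 4 survival genes that passed had a median log2 ratio of 0.60 and the 2 effectors one of -0.42, beside 0.15 for all tested genes. The ratio was above 0 for 4 of the 4 survival genes, 0 of the 2 effectors and 8673 of the 14859 tested genes.

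**Figure D1:**
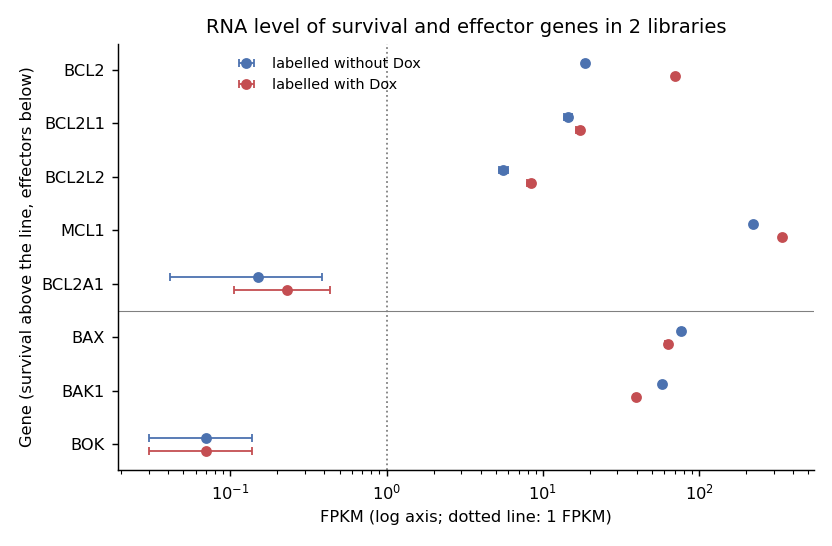
FPKM of the 8 members on a log axis in the library labelled without Dox (blue) and with Dox (red); bars are 95% Poisson intervals of the counts and are hidden by the points for the abundant genes. BCL2 moves from below BAX and BAK1 to above both (18.54 to 70.67 FPKM), while BCL2A1 and BOK lie left of the 1 FPKM line with overlapping intervals.

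The order of the levels changed at 1 place. Without Dox it ran MCL1 (222.55 FPKM), BAX (77.2), BAK1 (58.09), BCL2 (18.54), BCL2L1 (14.51), BCL2L2 (5.58), BCL2A1 (0.15) and BOK (0.07). With Dox, BCL2 had passed both effectors and stood second at 70.67 FPKM, behind MCL1 at 340.8 FPKM and ahead of BAX at 62.86 FPKM, and the others kept their order. Neighbours in either order differed beyond their counting intervals except BCL2A1 and BOK, whose intervals overlapped in both libraries. Among all tested genes ranked by FPKM, BCL2 went from rank 5366 to rank 1576 and MCL1 from 477 to 270, whereas BAX went from 1550 to 1834 and BAK1 from 2064 to 3032.

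BCL2 (ENSG00000171791.12, chromosome 18 from 63123346 to 63320128, reverse strand), the founding survival gene, had 4687 counts without Dox and 19944 with Dox. Its level was 3.81-fold higher with Dox, a log2 ratio of 1.92 (1.88 to 1.97), larger than in 94.8% of the tested genes. The scaling of the libraries shifts all genes together, and with the TMM factors of edgeR the median log2 ratio of all tested genes was -0.05 in place of 0.15, so the members' ratios are also given relative to that median. Relative to the median, the log2 ratio of BCL2 was 1.77. The estimated mean transcript length of BCL2 went from 5747.28 to 6037.18 bases. From these lengths, the longest listed transcript, BCL2-202 (7461 bases), made up between 30.1% and 75.1% of BCL2 transcripts without Dox and between 41.9% and 79.3% with Dox. The ranges overlap, so the transcript make-up of BCL2 could not be told apart between the libraries. BCL2-203, whose reading frame has 205 codons in place of the 239 of BCL2-201 and BCL2-202, could make up as much as 69.9% without Dox and 58.1% with Dox.

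MCL1 (ENSG00000143384.12, chromosome 1 from 150574551 to 150579738, reverse strand) was the most abundant member in both libraries. It had 35121 counts without Dox and 58126 with Dox, and its log2 ratio was 0.61 (0.60 to 0.63), or 0.46 relative to the median. Larger ratios were seen in 28.3% of the tested genes. The transcript MCL1-201 lacks the bases of the BH1 hallmark, has 271 codons in place of 350 and is known to encode a short form that promotes death. It could make up no more than 8.94% of MCL1 transcripts without Dox and 6.6% with Dox. The full-length transcript MCL1-202 lay between 17.5% and 91.1% without Dox and between 39.2% and 93.4% with Dox, since MCL1-204, a shorter transcript with 197 codons, could not be separated from it by length. MCL1-204 could make up as much as 82.5% without Dox and 60.8% with Dox. The gene-level values therefore do not separate the full-length form of MCL1 from this shorter one. ADAMTSL4-AS1, which overlaps MCL1 on the same strand, was listed with 62.08 and 98.17 counts, few beside those of MCL1.

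BCL2L1 (ENSG00000171552.12, chromosome 20 from 31664452 to 31723989, reverse strand), the gene of Bcl-xl, was close to the bulk of the genes. It was listed at 14.51 FPKM without Dox and 17.24 FPKM with Dox, with a log2 ratio of 0.25 (0.14 to 0.36) and of 0.09 relative to the median. The ratio was 0.04 with TMM factors and 0.03 with DESeq2 size factors, so that its distance from 0 depends on the scaling. The gene also encodes Bcl-xS, a death-promoting form made by BCL2L1-202, which has 170 codons and lacks the BH1 hallmark. Its share could be anything up to 81.5% without Dox and 83.5% with Dox, so the gene-level values do not separate Bcl-xl from Bcl-xS. ABALON, a non-coding gene on the opposite strand of BCL2L1, had 16.37 counts without Dox and 78.71 with Dox. Whether the counting used strand is not given in the sources used here, and reads of these genes may not be told apart where they overlap.

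BCL2L2 (ENSG00000129473.9, chromosome 14 from 23298790 to 23311759, forward strand), the gene of Bcl-w, was the lowest of the survival genes that passed the filter. Its level was 5.58 FPKM without Dox and 8.38 FPKM with Dox, a log2 ratio of 0.58 (0.45 to 0.70), or 0.43 relative to the median. The value is uncertain because BCL2L2 shares bases with the read-through gene BCL2L2-PABPN1, listed with 248.8 and 274.11 counts beside 826.71 and 1327.16 counts of BCL2L2. With the counts of both summed, the log2 ratio of CPM was 0.49 (0.38 to 0.60), beside 0.60 for BCL2L2 alone on that scale. PPP1R3E, on the other strand of the BCL2L2 locus, went from 5.53 to 20.16 FPKM, and its part in the value of BCL2L2 was not tested.

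BCL2A1 (ENSG00000140379.7, chromosome 15 from 79960889 to 79971446, reverse strand), the gene of BFL-1 and a target of NF-κB in B cells, was near the limit of detection. It had 4 counts (0.15 FPKM) without Dox and 9 counts (0.23 FPKM) with Dox. The interval of its log2 ratio ran from -1.44 to 2.55, and no difference was detectable at this depth.

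Among the effectors, BAX and BAK1 were both lower in the library labelled with Dox. BAX (ENSG00000087088.19, chromosome 19 from 48954815 to 48961798, forward strand), which moves from the cytosol to mitochondria on activation, had 2683 counts and 77.2 FPKM without Dox and 2249 counts and 62.86 FPKM with Dox. Its log2 ratio was -0.30 (-0.38 to -0.21), or -0.45 relative to the median. The listed BAX transcripts include some that retain an intron. One of them, BAX-210, could make up as much as 73.3% of BAX transcripts without Dox and 77.4% with Dox. The gene-level values therefore do not separate coding from non-coding BAX RNA. BAK1 (ENSG00000030110.12, chromosome 6 from 33572547 to 33580293, reverse strand), which resides in the outer membrane, had 5133 counts and 58.09 FPKM without Dox and 3702 counts and 39.62 FPKM with Dox. Its log2 ratio was -0.55 (-0.61 to -0.49), or -0.70 relative to the median, and 83.6% of the tested genes had a higher ratio. BAK1 and BAX were above 0 in none of the scalings tried, with ranges over all settings of -0.77 to -0.45 for BAK1 and -0.51 to -0.20 for BAX. The difference between the effectors was also outside its counting interval, as the level of BAX over that of BAK1 was 1.33 without Dox and 1.59 with Dox, a log2 change of 0.26 (0.15 to 0.36).

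For BAK1 and BCL2L2, 2 of the 6 members that passed the filter, the bounds that the listed mean length sets on the share of a transcript did not overlap between the libraries. The same held for 10.3% of the 10806 tested genes with at least 3 listed transcripts, and with 6 genes the count does not set the members apart. BAK1-203, the longest transcript at 2212 bases with a reading frame of 153 codons, made up between 41.3% and 44.2% of BAK1 transcripts without Dox and between 35.9% and 39.1% with Dox. The main BCL2L2 transcript, BCL2L2-201, made up between 95.4% and 95.6% without Dox and between 96.3% and 96.4% with Dox. The coding bases of BAK1-203 include those of both the BH3 core and the BH1 hallmark. This is a match of bases, and whether they are read in the same frame as in the longer reading frame was not tested. The bounds follow from the deposited length estimate, carry no counting error and depend on how reads were apportioned among transcripts. The BAK1 pseudogene BAK1P2 had 1 count in each library, and GGNBP1 on the opposite strand had 3 and 8 counts.

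BOK (ENSG00000176720.5, chromosome 2 from 241551424 to 241574138, forward strand), an effector whose protein is removed by degradation at the endoplasmic reticulum, had 8 counts and 0.07 FPKM in both libraries. The interval of its log2 ratio ran from -1.61 to 1.61, and no difference was detectable at this depth.

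**Figure D2:**
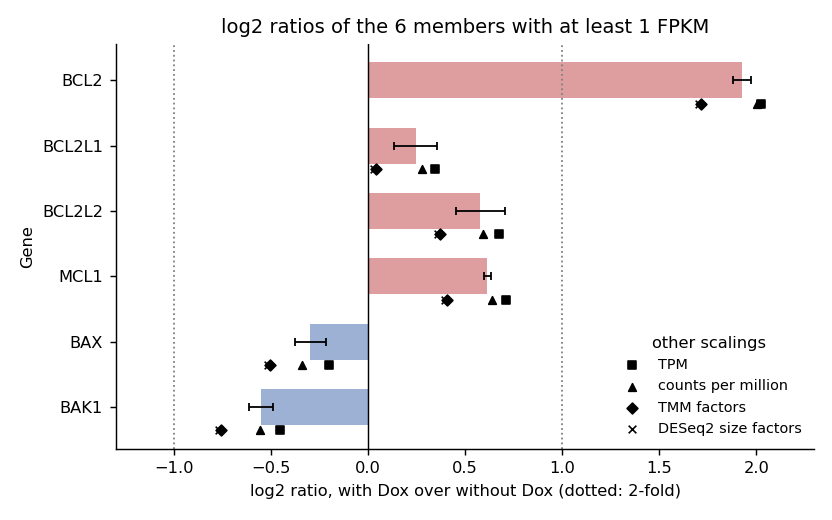
log2 ratio of FPKM + 0.1, with Dox over without Dox, for the 6 members that passed the filter (red, survival genes; blue, effectors), with 95% counting intervals; symbols below each bar give the ratio under other scalings. The bars of the 4 survival genes point right and those of BAX (-0.30) and BAK1 (-0.55) left under each scaling, and BCL2L1 comes closest to 0 (0.03 with DESeq2 size factors).

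Summed over each class, the survival genes amounted to 261.33 FPKM without Dox and 437.32 FPKM with Dox, a log2 ratio of 0.74 (0.73 to 0.76). The effectors amounted to 135.36 FPKM without Dox and 102.55 FPKM with Dox, a log2 ratio of -0.40 (-0.45 to -0.35). Survival RNA was thus 1.93 times (1.88 to 1.98) the effector RNA in the library labelled without Dox and 4.26 times (4.14 to 4.39) in the library labelled with Dox. The difference of the log2 ratios was 1.14 (1.09 to 1.20), a value that does not depend on how the libraries are scaled to each other. Without BCL2 in the sum the difference was 0.995, and without MCL1 it was 1.72. Leaving out either gene could not change the sign, since each remaining survival gene was higher with Dox and the summed effectors were lower. The size of the difference depended on both genes.

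MCL1 made up most of the survival RNA, 85.16% of the summed FPKM without Dox and 77.93% with Dox. The share of BCL2 went from 7.09% to 16.16%, that of BCL2L1 from 5.55% to 3.94% and that of BCL2L2 from 2.14% to 1.92%. Of the effector RNA, BAX accounted for 57.03% without Dox and 61.3% with Dox, and BAK1 for the remainder apart from traces of BOK.

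**Figure D3:**
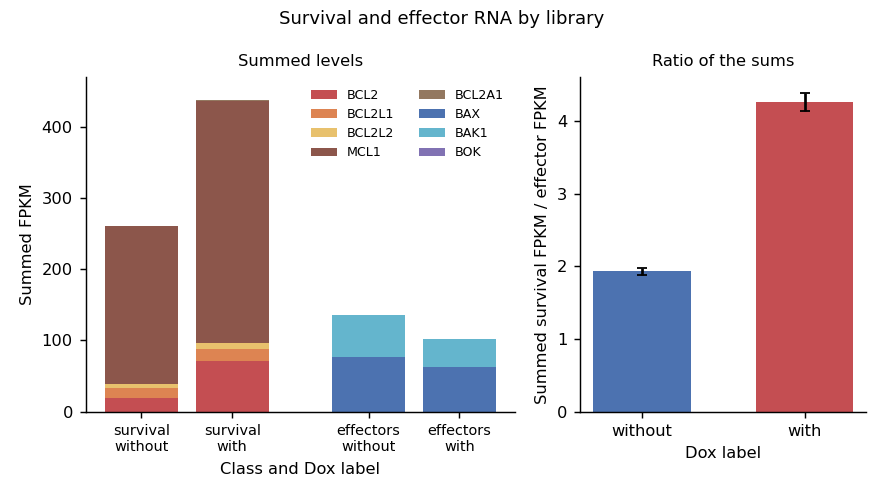
Left, FPKM of the members stacked by class for each Dox label; right, summed survival FPKM over summed effector FPKM, with 95% counting intervals. The survival stack grows from 261.33 to 437.32 FPKM, the effector stack shrinks from 135.36 to 102.55 FPKM, and their ratio goes from 1.93 to 4.26.

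Each survival gene that passed the filter was then set against each effector within the same library, and 8 of 8 ratios were higher in the library labelled with Dox. This direction follows from the single genes, since each of these survival genes was higher with Dox and BAX and BAK1 were lower, so the count adds no support. The pairs share their genes and are not independent of each other. BCL2 over BAX, a ratio widely used to describe the set point of apoptosis and taken here from gene-level RNA, was 0.24 without Dox and 1.12 with Dox. The log2 change was 2.23 (2.13 to 2.32). BCL2 over BAK1 went from 0.32 to 1.78, a log2 change of 2.48 (2.41 to 2.56). For MCL1, the ratio to BAX went from 2.88 to 5.42 and that to BAK1 from 3.83 to 8.60. The smallest change was that of BCL2L1 over BAX, from 0.19 to 0.27 (log2 change 0.55, interval 0.41 to 0.68). No ratio of BCL2L1 or BCL2L2 to an effector exceeded 1 in either library.

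Within the survival class the genes did not move as 1 unit. BCL2 was 1.28 times the level of BCL2L1 without Dox and 4.10 times with Dox, a log2 change of 1.68 (1.56 to 1.80). Relative to MCL1, BCL2 changed by 1.32 on the log2 scale (1.27 to 1.37) and BCL2L1 by -0.37 (-0.48 to -0.25). BCL2L2 and MCL1 did not differ beyond counting error, with a log2 change of their ratio of -0.03 (-0.15 to 0.10). The log2 ratios thus ran, from high to low, BCL2, then MCL1 and BCL2L2 without a detectable order, and then BCL2L1.

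**Figure D4:**
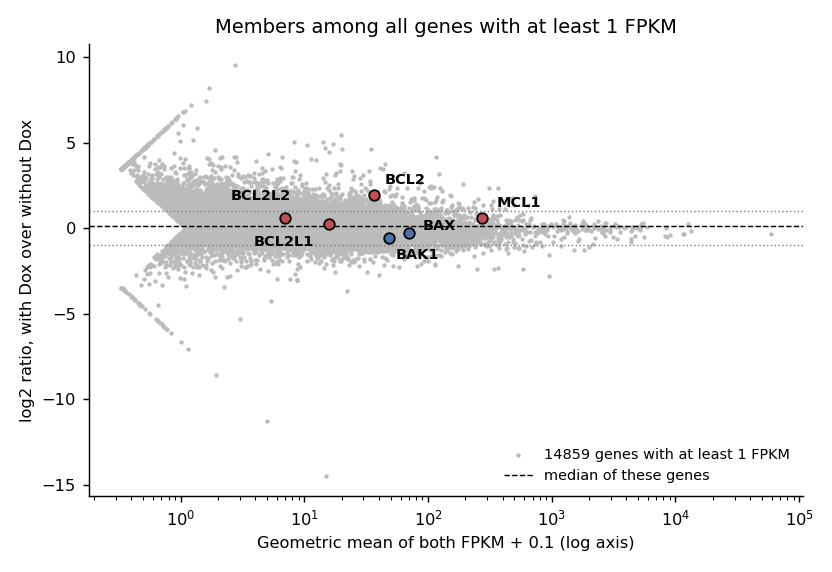
log2 ratio (with Dox over without Dox) against the geometric mean of both FPKM + 0.1 for the 14859 tested genes (grey), with the 6 members labelled (red, survival genes; blue, effectors). BCL2 lies above the 2-fold line at 1.92, and the other 5 members lie between the 2-fold lines around the dashed median of 0.15.

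The other genes of the pathway were described by lists chosen with earlier results of these data known. All 8 BH3-only genes, whose proteins engage the members through a BH3 region of their own, passed the filter. Of these, 4 were past 2-fold higher and 1 past 2-fold lower, with a median log2 ratio of 0.75. Among all tested genes, 17.0% were past 2-fold higher and 6.41% past 2-fold lower, with a median of 0.15. The same background holds for the lists that follow, and whether any list differs from it was not tested. BBC3 went from 2.8 to 14.91 FPKM (log2 ratio 2.37, interval 2.12 to 2.63). PMAIP1, whose protein binds MCL1 and BCL2A1 in preference to BCL2, went from 12.38 to 35.71 FPKM (1.52). BMF, which binds survival proteins after release from the cytoskeleton, went from 33.12 to 73.09 FPKM (1.14), and HRK, named after its values were seen since it stayed under 5 FPKM, went from 0.28 to 1.82 FPKM. BID, the protein that links death receptors to BAX and BAK1, went the other way, from 98.09 to 44.89 FPKM (-1.13). BAD, whose protein was also blotted and which is therefore named here, was listed at 41.27 and 37.8 FPKM, a log2 ratio of -0.13 (-0.25 to -0.0031).

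Of the 5 other genes listed by a BCL2L symbol outside the BH3-only list, 2 passed the filter and 0 were past 2-fold in either direction. Whether their proteins share the BCL2 fold was not tested. BCL2L12 went from 88.3 to 47.13 FPKM (log2 ratio -0.90) and BCL2L13, a mitochondrial receptor of autophagy, from 42.11 to 58.57 FPKM (0.48). The 6 outer membrane channels and receptors of BAX and BAK1 had a median log2 ratio of -0.46, with 1 of 6 above 0 and 1 past 2-fold lower. Of the 14859 tested genes, 8673 were above 0 and 6.41% were past 2-fold lower. MTCH2, the membrane receptor of BID, went from 101.83 to 46.94 FPKM (-1.12), and VDAC1, the main pore of the outer membrane, from 301.34 to 150.88 FPKM, a log2 ratio of -0.998 that fell just short of 2-fold. MTX1 and MTX2, partners in protein import, differed in direction with log2 ratios of -0.66 and 0.44.

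Downstream of the effectors, the 7 genes of the apoptosome and of proteins released from mitochondria had a median log2 ratio of 0.04 with 0 past 2-fold. Here too the background was 17.0% of all tested genes past 2-fold higher and 6.41% past 2-fold lower. CYCS, the gene of cytochrome c, was listed at 301.19 FPKM without Dox and 255.48 FPKM with Dox (-0.24), CASP9, the caspase of the apoptosome, at 4.38 and 6.36 FPKM (0.53), HTRA2 at 25.19 and 36.06 FPKM (0.52) and ENDOG at 9.05 and 6.31 FPKM (-0.51). The 6 ubiquitin ligases and deubiquitinases of MCL1 had a median of 0.17 with 0 past 2-fold. Among them USP9X, which removes ubiquitin from MCL1, went from 14.91 to 24.23 FPKM (0.70), whereas USP13 had a log2 ratio of -0.28, the ligase HUWE1 one of 0.18 and the ligase MARCH5 one of 0.28. Of the 8 partners of BCL2 and BOK at the endoplasmic reticulum and in the Beclin complex, 1 was past 2-fold higher, with a median of 0.17. That gene was ITPR1, a calcium channel bound by BCL2, from 2.37 to 8.47 FPKM (1.79), while its relatives ITPR2 and ITPR3 had log2 ratios of 0.31 and -0.39 and TMBIM6 (BAX inhibitor 1) one of 0.54.

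**Figure D5:**
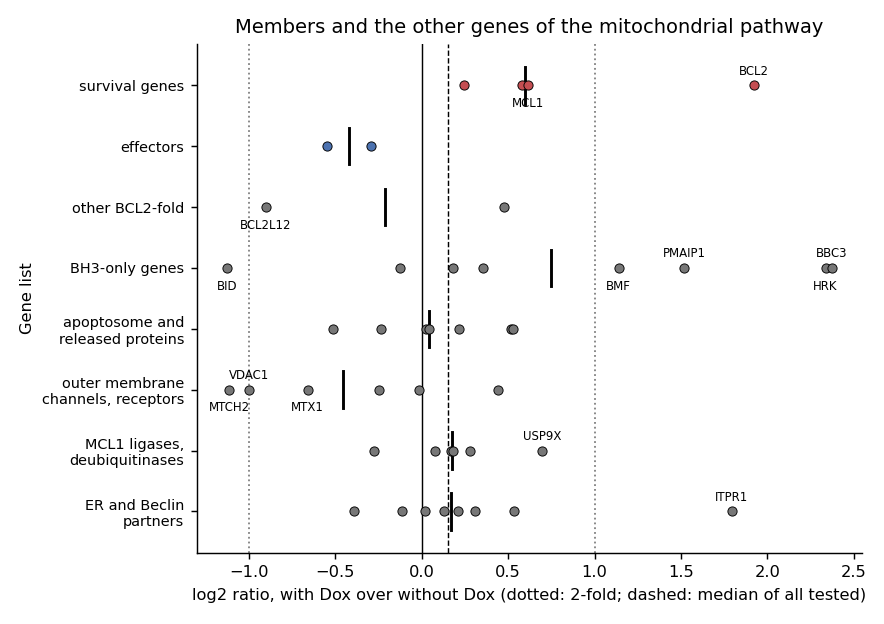
log2 ratio (with Dox over without Dox) of each tested gene in the 2 classes of members and 6 other pathway lists; black bars are list medians and the dashed line is the median of all tested genes (0.15). The BH3-only genes spread from -1.13 (BID) to 2.37 (BBC3), and the outer membrane list has its median at -0.46.

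Promoter windows of 300 bases (250 before the RefSeq start and 50 from it, GRCh38.p14) were given for 6 of the 8 members, with 7 windows in all. They were searched on both strands for CACGTG (the E-box of MYC- and TFE-type factors, which reads the same on both strands), TGATGNAA (an element of ATF4 type) and TGACGTCA (the cAMP response element), motifs chosen after the values were seen. BAX held CACGTG at 4 positions. Of the 35116 windows given, 5 (0.0142%) held it at 4 positions or more, and 7.26% held it at least once. The BAX sites are shown because no other window of a member held the motif. MCL1 and BCL2L2 had no window and were not searched. The first bases of the 4 BAX sites lie 138, 93, 45 and 14 bases before the RefSeq start of BAX. The BAX gene of GENCODE begins earlier, at 48954815, so the sites at 45 and 14 bases lie within it. The sites are printed with the motif in capitals, 5′ to 3′ on the forward strand, for chr19:48954726-48954753, chr19:48954771-48954798, chr19:48954819-48954846 and chr19:48954850-48954877.
BAX site 1: cattggacagtCACGTGacgggaccaaa
BAX site 2: gcaggtgcggtCACGTGacccggcggcg
BAX site 3: tgcggggcggcCACGTGaaggacgcacg
BAX site 4: agcggggctctCACGTGacccgggcgcg
TGATGNAA was found once, in BCL2A1, and in 3.62% of all windows. TGACGTCA was found in none of the members' windows and in 1.85% of all windows. A match of letters is a description of the window, not a measured binding site.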

How the data were processed

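Poly(A) RNA of 2 libraries was read in pairs of 150 bases. The submitters' processing notes name Bowtie 0.12.2, HISAT2 2.1.0, StringTie 1.3.4d and hg19 without their roles; the counting tool is not given in the sources used here. The authors deposited, per gene, expected counts (reads apportioned among transcripts, 33.8% and 33.6% of the values above 0 not whole), TPM values and FPKM values. Listed transcripts were in GENCODE 29 for 202888 of 204675, so its GRCh38 coordinates are given although the notes name hg19. The comparison was set by the labels, 1 library each, so no test across genes was possible and no p-value is given; the study's edgeR test was not run. Intervals of a single gene's log2 ratio are exact (Clopper-Pearson) 95% intervals of its share of the counts of both libraries, moved to the FPKM scale; those of sums and of ratios between genes use Poisson error by the delta method. The intervals of single genes and of sums were tried on simulated Poisson counts with fixed transcript lengths. That is the model they assume, so errors of apportioning reads among transcripts were not covered. Intervals of ratios between genes were not simulated. Transcript shares are the lowest and highest that give the listed mean length.

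The members and gene lists were chosen with earlier results of these data known. Named were SRD5A1, the members, up to 4 genes per list with the largest absolute log2 ratio among those with at least 5 FPKM, the 3 genes nearest to a member past 2-fold, and overlapping genes or copies; exceptions are stated. Alternatives covered the pseudocount (0.1 FPKM), the filter (1 FPKM), TPM, CPM and scaling by the factors of edgeR 4.0.16 (TMM) and DESeq2 1.42.0. R 4.3.3, Python 3.11.15, pandas 2.3.3, numpy 2.4.6, scipy 1.17.1 and matplotlib 3.10.9 were used. A marker gene of the B cell list is not reported here.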

Additional observations from a re-analysis of the deposited data

How the results depend on the processing

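Across the pseudocounts, filters and scalings tried, BCL2 was the 1 member past 2-fold higher and 0 members were past 2-fold lower. Of 37 member values under other pseudocounts, other scalings and the read-through sum of BCL2L2, 0 had another sign. A pseudocount is added to both libraries and cannot change a sign, so only the scalings and the read-through sum could have done so. Among all tested genes, 1606 were past 2-fold higher with a pseudocount of 1 FPKM, 4725 higher and 1883 lower with no filter, and 1256 higher and 603 lower with at least 5 FPKM. The 72.6% of changed genes that were higher became 56.0% with TMM factors (1946 higher, 1527 lower) and 55.2% with DESeq2 size factors (1922 higher, 1562 lower). The log2 ratio of the summed survival genes was 0.84 with TPM, 0.87 with CPM, 0.53 with TMM factors and 0.52 with DESeq2 size factors, and that of the summed effectors was -0.30, -0.48, -0.61 and -0.62. The difference between the classes was 1.35 with CPM, 1.26 as a mean over genes, 0.995 without BCL2 and 1.72 without MCL1. The TMM and DESeq2 factors and TPM shift all genes alike and left the difference between the classes at 1.14, CPM leaves out the transcript length, and the mean over genes weights the genes equally. No paired analysis was possible because each condition had 1 library, and for the same reason no library could be left out. Precision at this depth covers counting only, and BCL2A1 and BOK, with 4 to 9 counts, were too low for a comparison.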

Other observations

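The protein-coding genes whose pair of levels lay nearest to that of BCL2, by Euclidean distance on log2 (FPKM + 0.1) over the 2 libraries, were DLG3 (distance 0.0767, 19.51 to 69.56 FPKM), DNASE2 (0.102, 18.08 to 66.14 FPKM) and NADK2 (0.143, 17.39 to 65.48 FPKM). With 2 libraries such likeness is a description of 2 values. BCL2L10, a survival relative outside the list of members and named after its values were seen, had 4 counts without Dox and 43 with Dox and stayed under 1 FPKM in both libraries.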
